A study of Mus musculus with 2 samples.

Results

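Macrophages clear dying cells, lipoproteins, hyaluronan and hemoglobin complexes through a set of surface receptors, and 10 genes of that system were followed here across the cells of the mouse dorsal meninges. They were the scavenger receptor genes Mrc1, Stab1, Msr1, Cd163, Lyve1 and Cd36, and the efferocytosis genes Axl, Mertk, Gas6 and Timd4. The genes were chosen by symbol: each of the 10 symbols matched 1 row of the 32285 in the matrices. In macrophage-like cells every one of the 10 passed the minimum of 20 UMIs. By GENCODE on GRCm38 they lie on chromosomes 2 (Mrc1, Mertk), 5 (Cd36), 6 (Cd163), 7 (Lyve1, Axl), 8 (Msr1, Gas6), 11 (Timd4) and 14 (Stab1). Scavenger receptors bind modified or spent ligands and carry them to the lysosome. Efferocytosis receptors recognise phosphatidylserine on apoptotic cells, either directly, as the protein of Timd4 does, or through a soluble bridge such as Gas6, which binds the receptor kinases Axl and Mertk. Macrophages that live at tissue borders, including the meninges, are known for high Mrc1, Cd163 and Lyve1.

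The data came from 2 libraries of live sorted cells. One held the dorsal meninges of 5 male C57BL/6 mice (C57BL/6J in the study's methods) taken 1 week after a mild closed-skull traumatic brain injury (TBI), and the other those of 5 Sham-treated mice at the same time. All were wild type, 10 weeks of age by the sample descriptions, and each group was pooled into 1 sample, so mice within a group could not be told apart. Counts are unique molecular identifiers (UMIs) from the 3′ ends of transcripts, and a level is given as CPM, the UMIs of a gene per 1000000 UMIs of a class of cells.

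The filtered libraries held 2043 Sham and 3773 TBI cells, with 7866611 and 13940740 UMIs and medians of 2764 and 2663 UMIs per cell. Barcode sequences shared between the libraries numbered 20, of which 14 passed the filters. Because each group was 1 library, no test between Sham and TBI was possible: ratios carry 95% intervals for counting error only, and no replicate error could be given. A gene was counted as higher or lower when its CPM differed by at least 1.5-fold with at least 20 UMIs over both libraries. Cells were clustered without the 10 genes and named from other markers, so that a class did not depend on the levels described.

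Macrophage-like cells numbered 335 in Sham and 718 in TBI. The 11 macrophage markers, the list from which the class was named, summed to 43567 CPM in Sham and 45515 CPM in TBI. In endothelial-like cells the same markers summed to 977 and 1747 CPM. The macrophage-like cells comprised 3 clusters. A Folr2 and Cd209f-led cluster (120 and 316 cells) and a Ccl8 and Cd209g-led one (108 and 136 cells) carried markers of border macrophages and are called border-type. The cluster led by Fcgr4 and Cx3cr1 (107 and 266 cells) carried those of Ccr2-expressing macrophages and is called Ccr2-type. The median macrophage-like cell had 2901 UMIs in Sham and 4434 in TBI. The summed level of 5 erythroid markers in this class was 1843 CPM in Sham and 227 CPM in TBI, and the part of either difference in the ratios below was not tested.

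Of the 16 named classes with at least 20 cells in each library, macrophage-like cells had the highest mean CPM of 8 of the 10 genes, where 2.39% of all 14782 genes with at least 20 UMIs peaked in that class. The exceptions were Mertk, highest in pericyte-like cells, and Gas6, highest in fibroblast-like cells. The genes were chosen as macrophage receptors with earlier results of these data known, so this count is a description.

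**Figure D1:**
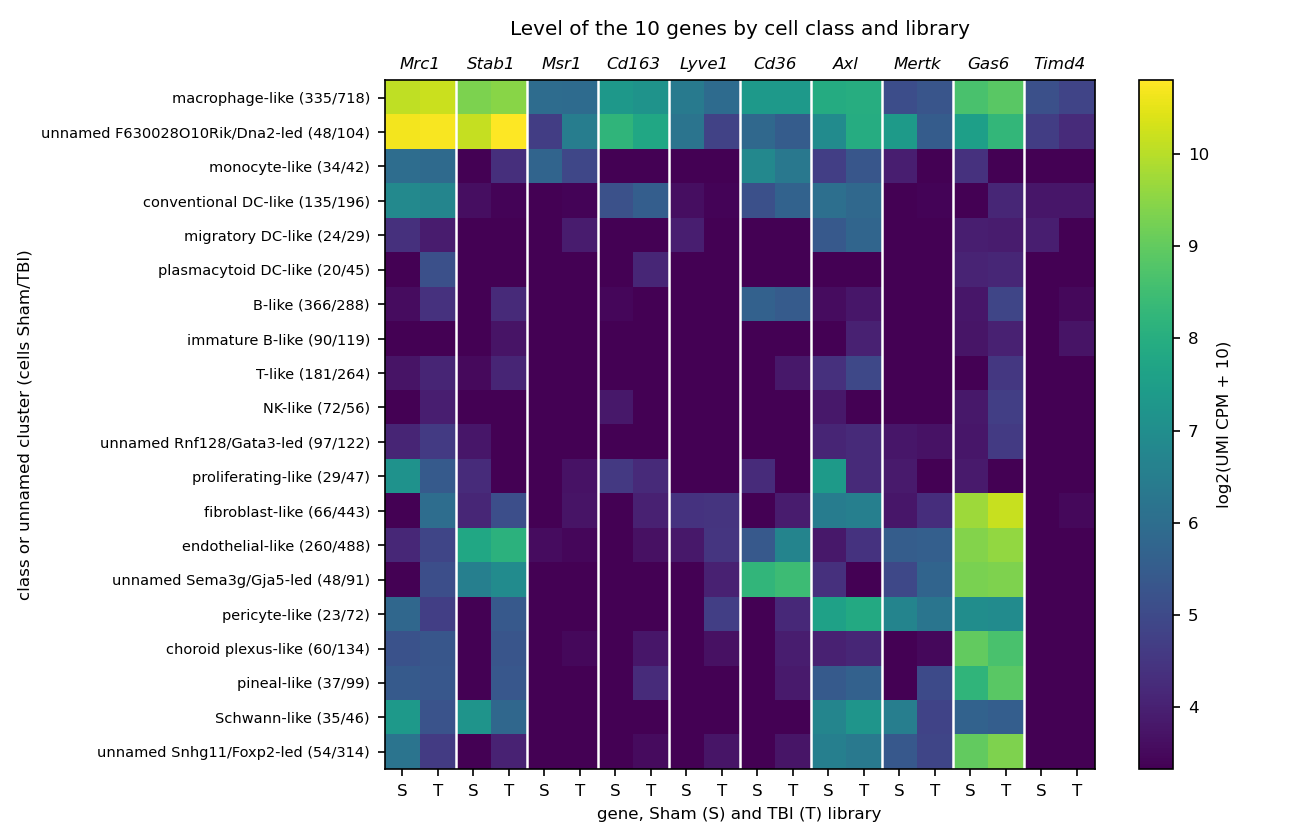
Level of each of the 10 genes, as log2(CPM + 10), in each named class and unnamed cluster (rows, with the cells of each library) in the Sham and TBI libraries (columns). Mrc1, Stab1, Msr1, Cd163, Lyve1 and Timd4 stand out in the macrophage-like row and, for Mrc1, Stab1 and Cd163, in the unnamed cluster under it. Gas6 is spread over fibroblast-like, endothelial-like, choroid plexus-like and macrophage-like rows.

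Mrc1, the mannose receptor CD206, which takes up glycoproteins, was at 1080 CPM (95% interval 1029 to 1133) in Sham and 1174 CPM (1139 to 1211) in TBI macrophage-like cells. The next named class, conventional dendritic-like cells, was at 105 and 96.1 CPM, and its intervals did not reach those of the macrophage-like cells. Stab1, which encodes the scavenger receptor stabilin-1, was at 638 CPM in Sham and 696 CPM in TBI macrophage-like cells. Its second class was endothelial-like cells, with 208 CPM (170 to 251) and 268 CPM (239 to 299). Within these, the cluster led by Vwf and Slco2a1, genes of venous endothelium, reached 400 and 453 CPM, above the 166 and 197 CPM of the capillary cluster led by Gpihbp1 and Igfbp3 in both libraries and with intervals apart.

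Msr1, the class A scavenger receptor for modified lipoproteins, was at 52.0 CPM in Sham and 51.9 CPM in TBI macrophage-like cells. Monocyte-like cells followed with 43.6 CPM (8 UMIs) and 20.0 CPM (4 UMIs), and their intervals overlapped those of the macrophage-like cells in both libraries. Cd163, the receptor for haptoglobin-hemoglobin complexes, was at 148 and 135 CPM in macrophage-like cells. Conventional dendritic-like cells had 26.4 and 37.6 CPM, from 18.5% and 17.3% of their cells. Lyve1, a hyaluronan receptor that also marks lymphatic endothelium, was at 73.5 CPM in Sham and 50.7 CPM in TBI macrophage-like cells. Only 8.06% and 8.64% of macrophage-like cells had a Lyve1 UMI.

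Most Lyve1 UMIs were outside the endothelium. Endothelial-like cells held 2 Lyve1 UMIs in Sham and 14 in TBI, against 113 and 177 in macrophage-like cells. Prox1, the transcription factor that defines lymphatic endothelium, had a UMI in 2 of 260 Sham and 4 of 488 TBI endothelial-like cells, and those cells held 1 and 9 of the Lyve1 UMIs.

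Cd36, a receptor for fatty acids, oxidised lipoproteins and thrombospondin, was at 154 CPM in Sham and 151 CPM in TBI macrophage-like cells. Monocyte-like cells followed with 103 and 69.9 CPM. The highest mean level over both libraries was in an unnamed cluster led by Sema3g and Gja5, genes of arterial endothelium, with 291 CPM (193 to 420) and 344 CPM (259 to 447), from 48 Sham and 91 TBI cells. B-like cells had 40.2 CPM (45 UMIs) and 34.2 CPM (28 UMIs) of Cd36, while T-like cells had 0 and 4 UMIs.

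Axl, a receptor kinase that is inducible in many cells, was at 232 CPM in Sham and 241 CPM in TBI macrophage-like cells. Pericyte-like cells had 186 CPM (80.4 to 367) and 225 CPM (150 to 326), which overlapped the macrophage-like level in both libraries. Fibroblast-like cells had 78.6 and 83.2 CPM, and conventional dendritic-like cells also held the gene. Mertk, the receptor kinase of resident phagocytes, was low in every class. Macrophage-like cells had 24.1 CPM (37 UMIs) and 28.9 CPM (101 UMIs), endothelial-like cells 36.6 CPM (19 UMIs) and 38.0 CPM (44 UMIs), and pericyte-like cells 93.1 CPM (4 UMIs) and 64.4 CPM (8 UMIs). The intervals of macrophage-like and endothelial-like cells overlapped, and those of pericyte-like cells were wide.

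Gas6, the bridge that binds Axl and Mertk, was at 835 CPM (729 to 952) in Sham and 1154 CPM (1103 to 1207) in TBI fibroblast-like cells. Endothelial-like cells had 679 and 768 CPM, choroid plexus-like cells 501 and 397 CPM, and macrophage-like cells 391 and 465 CPM. Lymphocyte classes were far lower, with 3.57 and 19.6 CPM in B-like cells. Timd4, the phosphatidylserine receptor TIM-4, was at 25.4 CPM (39 UMIs) in Sham and 18.9 CPM (66 UMIs) in TBI macrophage-like cells. Conventional dendritic-like cells had 5 and 6 UMIs of Timd4, while macrophage-like cells held 39 of the 46 and 66 of the 77 Timd4 UMIs of all filtered cells.

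**Figure D2:**
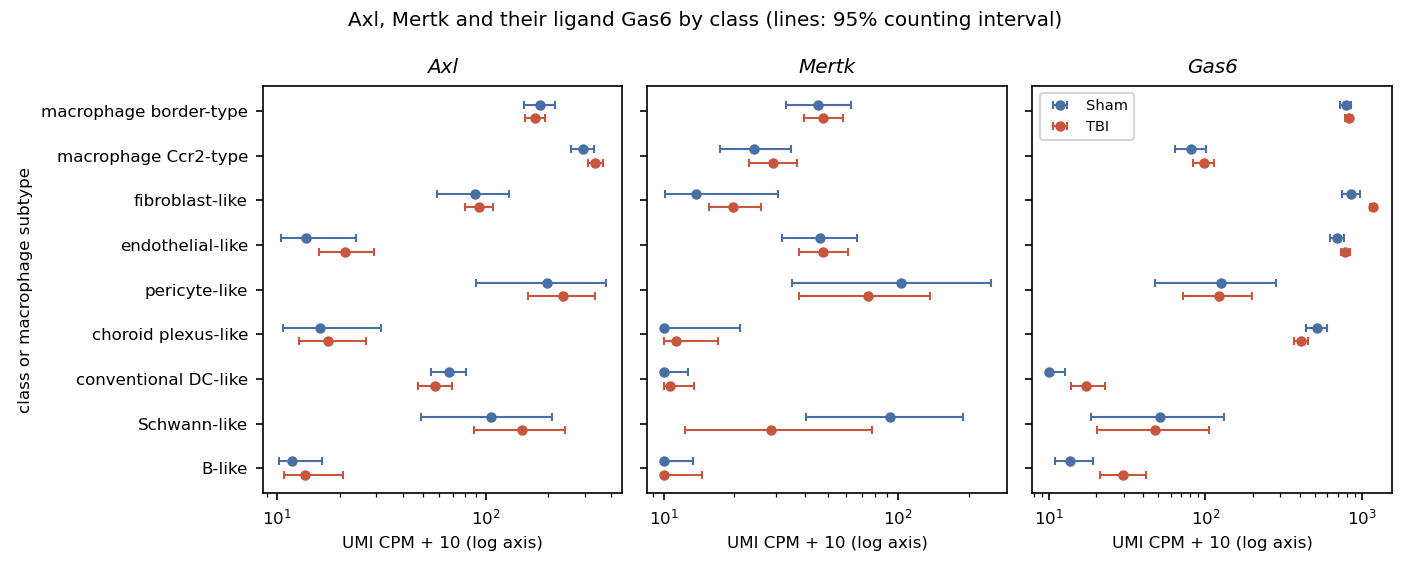
CPM + 10 on a log axis of Axl, Mertk and Gas6 in 2 macrophage subtypes and 7 classes, with Sham in blue, TBI in red and lines for the 95% counting interval. Gas6 sits high in border-type macrophage clusters, fibroblast-like and endothelial-like cells and low in Ccr2-type macrophages, whereas Axl is highest in Ccr2-type macrophages and pericyte-like cells.

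Detection was compared after each cell was thinned to 1000 UMIs, which left out 82 Sham and 87 TBI macrophage-like cells. At that depth Mrc1 was found in 66.7% and 74.3% of border-type cells, in 34.0% and 35.3% of Ccr2-type cells and in 0% and 0.752% of B-like cells. Cd36 was found in 24.0% and 16.9% of border-type, 4.85% and 10.1% of Ccr2-type, 3.34% and 2.63% of B-like and 0% and 0.427% of T-like cells. Without thinning, the Mrc1 shares were 65.8% and 83.2% in border-type and 79.4% and 77.1% in Ccr2-type cells, whose medians of 7555 and 6226 UMIs exceeded the 1461 and 3123 of border-type cells. After thinning, a border-type cell held a UMI of 2.54 of the 10 genes on average in Sham and 2.62 in TBI. A Ccr2-type cell then held 0.757 and 1.06, and a B-like cell 0.0395 and 0.0677. As counted, before thinning, the means were 3.39 and 4.07 in border-type and 2.74 and 2.89 in Ccr2-type cells. In B-like cells they were 0.0956 and 0.163.

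**Figure D3:**
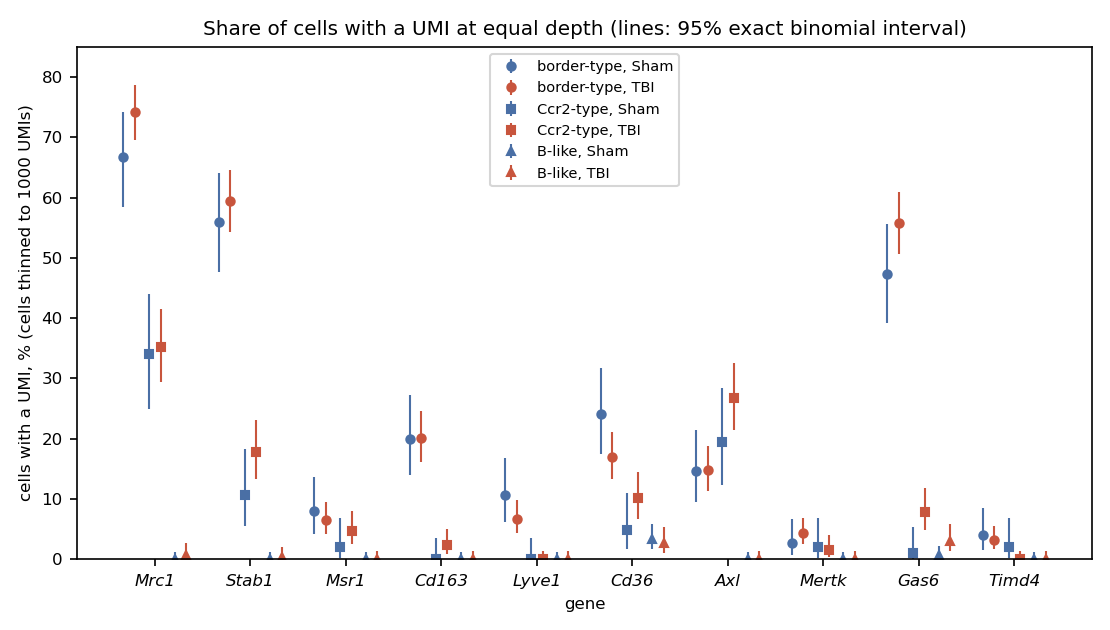
Percentage of cells with at least 1 UMI of each gene after thinning every cell to 1000 UMIs, in border-type, Ccr2-type and B-like cells of the Sham (blue) and TBI (red) libraries, with 95% exact binomial intervals. Mrc1, Stab1 and Gas6 are found in the largest shares of border-type cells, Axl has a larger share in Ccr2-type cells in both libraries with overlapping intervals in Sham, and B-like cells reach 3.34% at most, for Cd36.

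The 10 genes divided the macrophages by subtype in the same way in both libraries. Of the 10, 9 were at least 1.5-fold higher in border-type than in Ccr2-type clusters in Sham and again in TBI, compared with 10.4% of the 6870 genes with enough UMIs. Being higher at all in both libraries is a weaker condition, met by the same count of 9 and by 49.4% of genes. The remaining gene was Axl, which was at least 1.5-fold higher in the Ccr2-type cluster in both libraries, as were 4.44% of genes. The members were chosen with earlier results of these data known, and border macrophages are known for high Mrc1, Cd163 and Lyve1. These counts are therefore descriptions and no test against the share over all genes.

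Mrc1 was at 1929 CPM in border-type and 369 CPM in Ccr2-type cells in Sham, and at 1808 and 483 CPM in TBI, ratios of 5.22-fold and 3.74-fold. Stab1 differed by 8.80-fold and 6.22-fold. Both remained measurable in Ccr2-type cells, with 117 and 312 UMIs of Stab1. Cd163 showed one of the larger contrasts, with 312 against 10.8 CPM in Sham and 244 against 16.2 CPM in TBI. Lyve1 had 112 UMIs in border-type against 1 in Ccr2-type cells in Sham and 176 against 1 in TBI, log2 ratios of 6.49 (4.56 to 12.38) and 6.75 (4.84 to 12.65). Cd36 and Msr1 had smaller ratios, of 3.75-fold and 3.77-fold in Sham and 1.84-fold and 1.71-fold in TBI.

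Among the efferocytosis genes, Gas6 was at 773 CPM in border-type and 70.5 CPM in Ccr2-type cells in Sham, and at 811 and 87.4 CPM in TBI. The ratios were 10.9-fold and 9.24-fold. Axl ran the other way, with 173 CPM in border-type and 282 CPM in Ccr2-type cells in Sham and 163 and 326 CPM in TBI, with 95% intervals of the log2 ratio from -1.04 to -0.39 and from -1.21 to -0.80. Mertk was 2.44-fold and 1.96-fold higher in border-type cells, from 12 and 32 UMIs in the Ccr2-type cluster. Timd4 had 30 and 65 UMIs in border-type cells and 9 and 1 in Ccr2-type cells, the 9 Sham UMIs coming from 2 cells. In border-type cells, 48 of the 65 Sham cells and 145 of the 173 TBI cells with an Axl UMI also held a Gas6 UMI. Over all border-type cells, 148 of 228 in Sham and 345 of 452 in TBI held a Gas6 UMI. These cells were not thinned to equal depth. Mertk UMIs were found in 19 Sham and 52 TBI border-type cells, of which 9 and 28 also held an Axl UMI, again without thinning.

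**Figure D4:**
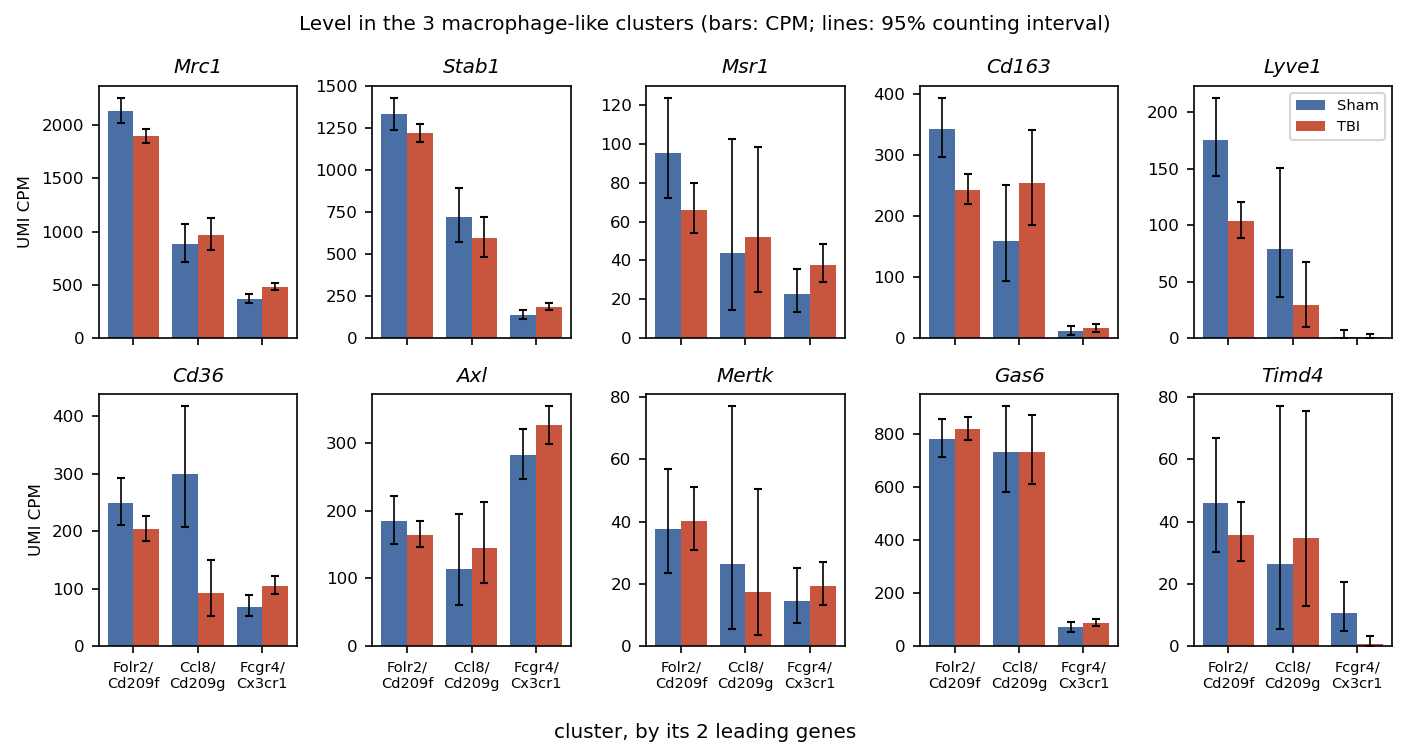
CPM of each gene in the 3 macrophage-like clusters, named by their leading genes, in Sham (blue) and TBI (red), with lines for the 95% counting interval; each panel has its own axis. In 9 panels the Fcgr4/Cx3cr1 cluster is lower than the Folr2/Cd209f cluster in both libraries, and in the Axl panel it is higher.

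The promoters of 4 of these genes are shown because they span the contrast: Mrc1, Stab1 and Cd163 were higher in border-type cells and Axl in Ccr2-type cells. The sequences are those of RefSeq on GRCm38.p6, from 250 bases before to 50 after the transcription start, each written 5′ to 3′ on the strand of its gene. Of the 10 genes, 8 had an entry. Capitals mark GAGGAA, the core recognised by the ETS factor PU.1, and TGCTGA, the half-site of MAF factors, searched on both strands; the 2 motifs did not overlap in these sequences. GAGGAA was present on either strand in 28.3% and TGCTGA in 19.1% of 27025 promoters of this length.
Mrc1 (chr2:14229164-14229463, plus strand): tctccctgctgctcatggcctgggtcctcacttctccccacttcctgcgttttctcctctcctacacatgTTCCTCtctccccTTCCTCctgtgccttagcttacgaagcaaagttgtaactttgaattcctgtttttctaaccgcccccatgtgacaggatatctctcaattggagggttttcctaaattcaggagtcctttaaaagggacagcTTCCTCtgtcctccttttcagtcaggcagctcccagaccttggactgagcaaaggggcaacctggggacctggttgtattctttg
Stab1 (chr14:31168592-31168891, minus strand): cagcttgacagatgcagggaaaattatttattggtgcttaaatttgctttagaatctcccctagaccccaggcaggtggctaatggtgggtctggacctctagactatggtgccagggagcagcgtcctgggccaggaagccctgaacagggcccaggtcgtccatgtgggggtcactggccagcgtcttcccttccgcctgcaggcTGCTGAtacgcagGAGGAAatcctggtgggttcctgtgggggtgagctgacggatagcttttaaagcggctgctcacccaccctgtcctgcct
Cd163 (chr6:124304401-124304700, plus strand): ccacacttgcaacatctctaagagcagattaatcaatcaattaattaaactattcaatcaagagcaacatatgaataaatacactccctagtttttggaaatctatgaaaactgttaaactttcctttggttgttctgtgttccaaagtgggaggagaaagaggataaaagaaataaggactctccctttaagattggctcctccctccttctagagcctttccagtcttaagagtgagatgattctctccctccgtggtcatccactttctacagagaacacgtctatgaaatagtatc
Axl (chr7:25788684-25788983, minus strand): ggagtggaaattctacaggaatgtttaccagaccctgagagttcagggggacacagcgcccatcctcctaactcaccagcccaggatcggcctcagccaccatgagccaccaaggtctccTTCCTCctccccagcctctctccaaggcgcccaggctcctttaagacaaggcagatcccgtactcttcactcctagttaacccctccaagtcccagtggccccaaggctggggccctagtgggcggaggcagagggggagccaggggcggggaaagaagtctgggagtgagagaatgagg
Mrc1 had 3 matches to GAGGAA, Stab1 and Axl had 1 each and Cd163 had none. TGCTGA was found once in Stab1, and not in the other 3 windows. These matches describe the letters only, and binding was not measured.

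In macrophage-like cells as a whole, none of the 10 genes was 1.5-fold higher in TBI, where 7.67% of 9708 genes were, and none was 1.5-fold lower, where 4.59% were. No p was computed for these counts, since there was 1 library in each group. Mrc1 had a log2 ratio of TBI over Sham of 0.12 (0.04 to 0.20) and Stab1 of 0.12 (0.02 to 0.23). Gas6 had 0.25 (0.11 to 0.39), which turned to -0.07 when the mean over cells replaced the summed UMIs. Msr1, Cd36 and Axl lay between -0.03 and 0.05 with intervals holding 0, although Cd36 was at -0.47 as a mean over cells. Cd163 was at -0.14 (-0.37 to 0.10), and Mertk at 0.25 (-0.29 to 0.85). Lyve1 at -0.54 (-0.88 to -0.18) and Timd4 at -0.43 (-1.02 to 0.19) were the 2 lowest.

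The makeup of the class differed between the libraries, in opposite directions by UMIs and by cells. Border-type cells gave 45.6% of its UMIs in Sham and 52.2% in TBI, but were 68.1% and 63.0% of its cells. In border-type cells the log2 ratios of Mrc1 and Stab1 were both -0.09. In the Ccr2-type cluster they were 0.39 (0.20 to 0.58) for Mrc1 and 0.41 (0.11 to 0.74) for Stab1. Border-type cells had 0 of 10 genes counted as higher (background 10.0%) and 1 as lower, Lyve1 (background 6.65%). In the Ccr2-type cluster, 8 genes had enough UMIs, 2 were counted as higher, Msr1 and Cd36 (background 9.61%), and 0 as lower (background 7.57%).

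**Figure D5:**
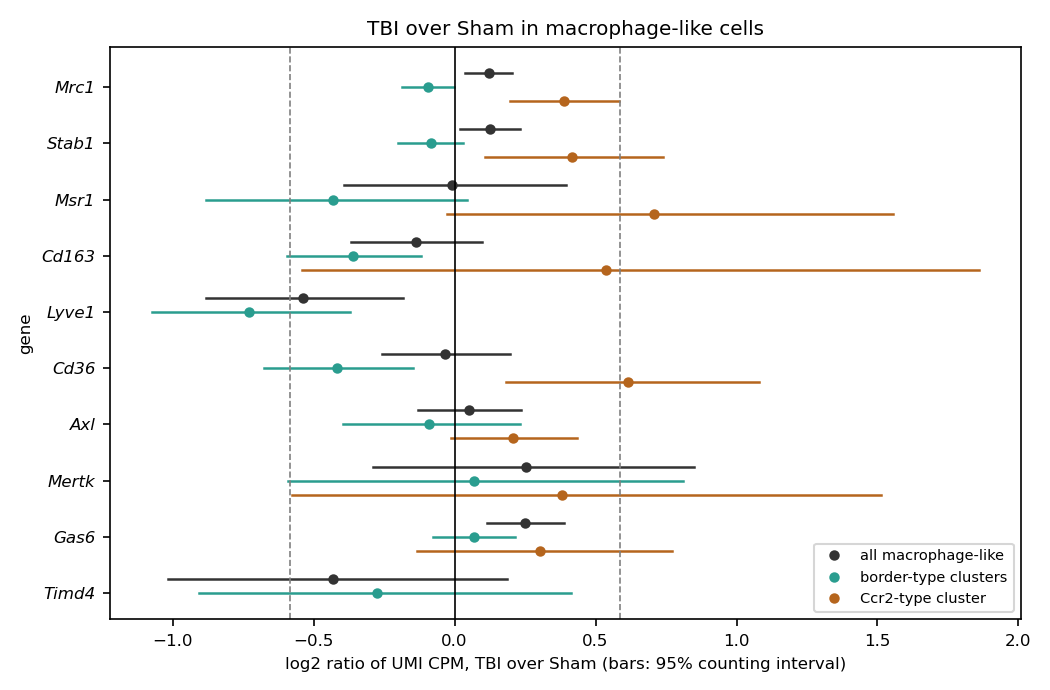
Log2 ratio of CPM in TBI over Sham for each gene in all macrophage-like cells, in border-type clusters and in the Ccr2-type cluster, with 95% counting intervals; dashed lines mark 1.5-fold, and genes with fewer than 20 UMIs in a group of cells are left out. The black points of all macrophage-like cells lie within the dashed lines, Lyve1 in border-type cells lies outside on the left, and Msr1 and Cd36 in the Ccr2-type cluster lie outside on the right.

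Lyve1 in border-type cells was at 160 CPM (112 UMIs) in Sham and 96.7 CPM (176 UMIs) in TBI, a log2 ratio of -0.73 (-1.08 to -0.37). A few cells carried much of the Sham count. The 3 richest of the 228 Sham cells held 49.1% of the Lyve1 UMIs, up to 20 in 1 cell, and the 3 richest of the 452 TBI cells held 18.8%. Without those 3 cells in each library the levels were 84.3 and 79.7 CPM, a log2 ratio of -0.08. The cells left out were chosen for their Lyve1 count, from 26 cells with a UMI in Sham and 61 in TBI. Their removal therefore takes a larger part of the Sham count, and whether the ratio depends on them was not tested. The share of border-type cells with a Lyve1 UMI was 11.4% in Sham and 13.5% in TBI as counted, and 10.7% and 6.70% after thinning.

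Cd36 took opposite directions in the macrophage clusters. In the Ccr2-type cluster it was at 68.1 CPM in Sham and 105 CPM in TBI, a log2 ratio of 0.61 (0.18 to 1.08), which fell under the 1.5-fold limit at 0.53 without predicted doublets. In the cluster led by Ccl8 and Cd209g it was at 299 CPM (34 UMIs) in Sham and 92.3 CPM (16 UMIs) in TBI, a log2 ratio of -1.67 (-2.65 to -0.80), in a cluster where 12.3% of genes were counted as lower. That cluster was shallow, with medians of 806 and 978 UMIs per cell. Its Cd36 UMIs were spread over 25 Sham and 15 TBI cells, and the ratio was -1.77 without the 3 richest cells of each library. Msr1 in the Ccr2-type cluster was at 22.7 CPM (19 UMIs) and 37.7 CPM (63 UMIs), with an interval that held 0 (-0.03 to 1.56).

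Outside the macrophages, Cd36 was higher in TBI endothelial-like cells, at 32.7 CPM (17 UMIs) in Sham and 93.2 CPM (108 UMIs) in TBI, a log2 ratio of 1.48 (0.77 to 2.34). In that class 10.6% of all genes were counted as higher, and 2 of the 5 genes with enough UMIs were, Cd36 and Mrc1, the latter with 4 and 23 UMIs and an interval that held 0. The capillary cluster led by Gpihbp1 and Igfbp3 had 40.1 and 137 CPM of Cd36 (background 9.30%), and the cluster led by Vwf and Slco2a1 had 17.4 CPM (2 UMIs) and 43.1 CPM (16 UMIs), too few for the minimum. The 3 richest cells in each library held 60.0% and 38.0% of the capillary cluster's Cd36 UMIs, and without the 3 richest cells of each library the endothelial-like levels were 15.7 and 63.7 CPM. The share of endothelial-like cells with a Cd36 UMI at equal depth was 2.99% in Sham and 6.34% in TBI. In the Sema3g and Gja5-led cluster, where Cd36 was highest, the levels of 291 and 344 CPM had overlapping intervals. Conventional dendritic-like cells had 25.7 and 41.3 CPM, a log2 ratio of 0.67 (0.07 to 1.32), where 8.28% of genes were counted as higher.

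Gas6 was the gene of the 10 that differed most over all filtered cells, with 191 CPM in Sham and 389 CPM in TBI, a log2 ratio of 1.03 (0.94 to 1.11). It was also the only one of the 10 counted as higher over all cells, where 17.9% of genes were. Within the large sources the ratios were smaller: 0.46 (0.27 to 0.67) in fibroblast-like, 0.18 in endothelial-like and 0.25 in macrophage-like cells. In choroid plexus-like cells, which gave 11.1% of the Sham Gas6 UMIs, the ratio was -0.34 (-0.61 to -0.06). The cells themselves were in different proportions. Fibroblast-like cells were 66 of the Sham cells (3.23%) and 443 of the TBI cells (11.7%), and gave 14.9% of all Gas6 UMIs in Sham and 34.8% in TBI. Macrophage-like cells gave 601 of the 1501 Gas6 UMIs in Sham and 1622 of the 5416 in TBI. With 1 pool of mice in each group, proportions of cells that differ through injury and through dissection or sorting cannot be told apart.

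Some ratios in small or unrelated classes rested on few cells. Mrc1 in fibroblast-like cells had 0 UMIs in 66 Sham cells and 87 UMIs in 23 of 443 TBI cells, where 12.5% of genes were counted as higher. The TBI level of 53.2 CPM was 4.74-fold a floor of 3 counts in the Sham class sum. The Sham counting interval reached 13.8 CPM, above that floor of 11.2 CPM. Without predicted doublets 17 UMIs remained, and the interval of the ratio held 0. The summed level of the 11 macrophage markers in fibroblast-like cells was 1284 CPM in Sham and 3030 CPM in TBI. In proliferating-like cells Mrc1 was at 131 and 33.8 CPM and Axl at 159 and 8.45 CPM, from 29 Sham and 47 TBI cells, where 10.9% of genes were counted as lower. In Sham 3 of those cells held 68.6% of the Axl UMIs, and the macrophage markers were at 5074 CPM in Sham and 701 CPM in TBI proliferating-like cells. Gas6 in B-like cells had 4 and 16 UMIs (background 8.11%), while the macrophage markers were at 121 and 439 CPM there. The part of these marker levels in the ratios was not tested.

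One unnamed cluster, led by F630028O10Rik and Dna2, had high levels of some of these genes. Its 48 Sham and 104 TBI cells were shallow, with medians of 877 and 896 UMIs. Mrc1 was at 1622 and 1699 CPM there, and Stab1 at 1113 CPM (868 to 1406) and 1778 CPM (1541 to 2041). Cd163 was at 286 and 211 CPM. Other genes lay under their macrophage-like levels there, Cd36 at 47.7 and 35.2 CPM and Gas6 at 175 and 299 CPM, while Mertk was at 159 CPM in Sham and 35.2 CPM in TBI. Ranked beside the named classes, unnamed clusters had the highest CPM of Mrc1, Stab1, Cd163, Cd36 and Mertk, and macrophage-like cells that of 4 genes, Msr1, Lyve1, Axl and Timd4.

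Other genes of the same pathways were counted in macrophage-like cells. Of 60 listed genes, 45 had at least 20 UMIs: 6 were counted as higher in TBI (background 7.67%), 2 as lower (background 4.59%) and 37 as neither, with a median log2 ratio of -0.03 beside 0.02 over all genes. Among other scavenger receptors, 1 of 6 was higher and 1 lower: Scarf1, an endothelial and macrophage receptor for modified lipoproteins, had 5 and 34 UMIs (1.47, 0.22 to 3.29), and Colec12, the collectin placenta 1 scavenger receptor, 54 and 48 UMIs (-1.35, -1.94 to -0.76). Among other phosphatidylserine receptors and bridges, 1 of 11 was higher and 1 lower. Thbs1, thrombospondin-1, which bridges apoptotic cells to Cd36, had 4.55 and 19.8 CPM (2.03, 1.00 to 3.49), and Cd300lf had 8.45 and 2.58 CPM (-1.69, -3.12 to -0.37).

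Of the find-me and do-not-eat-me signals, 1 of 6 was higher: Anxa1, annexin A1, with 22.1 and 45.5 CPM (log2 ratio 1.03, 0.50 to 1.62). Of the engulfment machinery, 2 of 10 were higher: Crkl was at 0.91 (0.16 to 1.79), and Ptk2, named after its values were seen, was at 0.73 with an interval that held 0 (-0.51 to 2.40). Of the lipid handling genes, 1 of 9 was higher: Pparg, a nuclear receptor known to induce Cd36, with 11 and 56 UMIs (1.11, 0.22 to 2.25). None of the 3 receptor sheddase genes, Adam10, Adam17 and Adam9, passed 1.5-fold in either direction. Of the listed genes with enough UMIs, 37 of 45 stayed within 1.5-fold, where 7.67% of all genes were counted as higher and 4.59% as lower.

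The genes most like each of the 10 in level were sought over 32 sums, 16 named classes in each of the 2 libraries, among 9872 genes with at least 200 UMIs. The sums share libraries and differ in depth, so the correlations are descriptions. Mrc1 was most like Fcrls (Pearson r = 0.90), Tbxas1 (0.86) and Clec4a2 (0.85), and Cd163 like Cd209b, Siglece (both 0.92) and Fcrls (0.89). Lyve1 was most like Slc40a1 (0.88), which encodes the iron exporter ferroportin, Cd209f (0.86) and Abcc3 (0.85), and Timd4 like Ccl2, Cd209f and Cd209g (all 0.90). Stab1 was most like Gm4951 (0.87), Chp2 (0.86) and Cbr2 (0.81). Cd209f, Cd209g and Cbr2 were also among the markers that named the border-type clusters. Fcrls, and Adgre1 in the sentences that follow, were on the list that named the macrophage-like class. Likeness to these markers is therefore not independent of how the classes were made. Msr1 was most like Lilra5 (0.96), C5ar1 (0.95) and Adgre1 (0.90), the gene of the macrophage antigen F4/80. Cd36 was most like Tlr2 (0.82), Cd300ld (0.78) and Adgre1 (0.78). Among the efferocytosis genes, Axl was most like Sh3pxd2b (0.83), Itgb5 (0.82), an integrin subunit that takes part in apoptotic cell uptake, and Abhd12 (0.81). Mertk was most like Stard8 (0.91), 3222401L13Rik and Zcchc14 (both 0.89), and Gas6 like Copz2, Spats2l (both 0.87) and Cdkn1c (0.86).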

How the data were processed

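The authors deposited raw UMI counts for each gene and barcode, made by mapping reads to mm10 with Cell Ranger. The methods, the processing notes and the matrix header name different versions of it (the notes 2.1.1 and the header 3.1.0), and the sources used here give no release of the annotation. Cell classes were rebuilt from the counts here.

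Cells with 150 to 5000 genes, at most 20% mitochondrial and at most 5% hemoglobin UMIs were kept, which are the limits of the study's methods, and they were clustered jointly from 2000 variable genes, 20 principal components and a graph of 20 neighbours (Leiden, resolution 0.8, leidenalg 0.10.2, scanpy 1.11.5). The 10 genes were kept out of the clustering genes and the markers. To be named, a cluster needed 3 or more markers of 1 class in its 100 leading genes, each detected in at least 10% of its cells. That number was raised from 50 after the clusters were seen. It gave 27 clusters, of which 4 stayed unnamed and 18 classes were named, and names rebuilt in this way can differ from those of the study. Predicted doublets, 33 Sham and 114 TBI cells, were left in and removed in an alternative.

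UMIs were summed per class and library. CPM have exact Poisson intervals, shares exact binomial ones, and log2 ratios, with 0.5 added to each sum, exact binomial ones, all at 95% and for counting error only. Over a whole filtered library the floor of 3 counts corresponds to 0.381 CPM in Sham and 0.215 CPM in TBI. CPM of 3′ UMIs were not divided by transcript length. Levels were mainly compared within a gene, since how well the transcripts of different genes were captured was not measured. The ratio step was tested on simulated counts. These were independent Poisson draws from class sums, the error the intervals assume, so the test does not cover UMIs gathered in few cells. The members and lists were chosen with earlier results of these data known. All 10 genes were reported in each class with at least 20 cells per library. From each pathway list, up to 3 genes per direction past 1.5-fold, with at least 20 UMIs and an interval that leaves out 0, were named (Ptk2 was named outside this rule), and for likeness the 3 genes with the highest Pearson r of log2(CPM + 10) for each member. Alternatives covered the clustering, the filters on cells, depth and the scale, including the TMM factors of edgeR 4.0.16.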

Additional observations from a re-analysis of the deposited data

Results flagged for a closer look

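Mrc1 and Cd36 had ratios of TBI over Sham past 1.5-fold in opposite directions in different groups of cells, with counting intervals that left out 0. The difference between the groups of cells was not tested, since each library is 1 sample. Mrc1 had 0 UMIs in Sham fibroblast-like cells, and its TBI level was 4.74-fold a floor of 3 counts in the Sham class sum. In proliferating-like cells Mrc1 had a log2 ratio of -1.93. Without predicted doublets the fibroblast-like count fell from 87 to 17 UMIs, and the interval then held 0. The summed macrophage markers went from 1284 CPM in Sham to 3030 CPM in TBI in fibroblast-like cells and from 5074 to 701 CPM in proliferating-like cells, and their part in these ratios was not tested. Cd36 had log2 ratios of 1.48 in endothelial-like cells, 1.73 in their capillary cluster led by Gpihbp1 and Igfbp3, 0.67 in conventional dendritic-like cells and 0.61 in Ccr2-type macrophages, against -1.67 in the macrophage cluster led by Ccl8 and Cd209g. The Ccr2-type ratio was 0.53, under 1.5-fold, without predicted doublets.

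Barcodes that the filters removed also held these genes. In the 604 Sham and 431 TBI barcodes over the hemoglobin limit, Cd36 was at 154 CPM (135 to 176) and 85.9 CPM (66.8 to 109), above the 49.2 and 59.0 CPM of the filtered cells, with a UMI in 120 and 47 barcodes. In the 52 Sham and 145 TBI barcodes removed by the other limits, Gas6 was at 211 CPM (156 to 280) and 405 CPM (332 to 489), beside 191 and 389 CPM in the filtered cells. Mrc1 in the barcodes over the hemoglobin limit was at 30.0 and 23.6 CPM.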

How the results depend on the processing

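No paired analysis was possible because each group is 1 library and the labels share a single replicate number. Of 49 recomputed counts of members, 44 stayed within 1.5 times the reported count. The 8 genes highest in macrophage-like cells became 4 when unnamed clusters were ranked beside the classes. The count of genes at least 1.5-fold higher in macrophage-like cells, 0, became 2 in the Ccr2-type cluster. The count of genes at least 1.5-fold lower, 0, became 1 (Lyve1) with no hemoglobin limit and 1 (Lyve1) in border-type clusters, and 2 (Lyve1 and Timd4) with cells thinned to 1000 UMIs. The cause was not tested. Ranking unnamed clusters, restricting to a subtype and the 50 leading genes were alternatives chosen after seeing the data.

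Of 100 recomputed log2 ratios of single genes in macrophage-like cells, 97 stayed within the counting interval of the reported ratio. As a mean over cells, Cd36 moved to -0.47 and Gas6 to -0.07, and with thinned cells Axl moved to 0.33. Lyve1 ranged from -0.72 to -0.53, Timd4 from -0.92 to -0.08 and Mrc1 from 0.06 to 0.15. Leaving out the 3 richest cells of each library, chosen after seeing the data, moved Lyve1 in border-type clusters to -0.08. With no replicate libraries, the intervals cover counting error alone. In macrophage-like cells those of Mertk (37 and 101 UMIs), Timd4 (39 and 66 UMIs) and Lyve1 (113 and 177 UMIs) reached past 1.5-fold on 1 side.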
